A study of Mus musculus with 12 samples.

Results

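The genes described here are 9 goblet cell products and regulators, measured by RNA sequencing in colonic intestinal epithelial cells. They were chosen by name for their role in goblet cells: the secreted products Muc2, Clca1, Fcgbp, Zg16, Tff3 and Spink4, the secretory pathway protein Agr2, and the transcription factors Spdef and Atoh1. All 9 were among the 46517 genes counted, and all 9 passed the filter on low counts that left 12522 genes for testing. The samples came from C57BL/6 mice of 7 to 9 weeks, either wild type (WT) or Nfkb2-/- (knockout, KO), and each genotype was studied without treatment or after 48 h of dextran sulfate sodium (DSS), with 3 biological replicates in each of the 4 groups. Nfkb2 encodes p100, the precursor of the NF-kB subunit p52. The labels name no tissue-restricted deletion, so the KO is taken here only as the genotype they give, and DSS is a polysaccharide that injures the colonic epithelium. Epithelial cells were detached from whole colon pieces with EDTA and were typically about 90% pure by flow cytometry for EpCAM-positive, CD45.2-negative cells, so each library mixes all epithelial cell types with some other cells. Because RNA was read in bulk, fewer goblet cells and less RNA per goblet cell cannot be told apart in any value below.

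Goblet cells store the gel-forming mucin MUC2 in granules and release it to build the mucus that keeps bacteria away from the colonic surface. CLCA1, FCGBP and ZG16 are secreted with it and are among the main non-mucin proteins of colonic mucus, TFF3 is a trefoil peptide linked to epithelial repair, and AGR2 is a protein disulfide isomerase of the endoplasmic reticulum that mucin production needs. ATOH1 is the basic helix-loop-helix factor that commits progenitors to the secretory lineages when Notch signalling is low, and SPDEF acts downstream of it in goblet cell maturation.

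Promoter sequences are shown for the gel-forming mucin and for its partner Fcgbp, since both genes rose under DSS in the KO. RefSeq (build GRCm38.p6) gave a promoter for 5 of the 9 genes (Muc2, Fcgbp, Agr2, Spdef and Atoh1). The 250 bases before the gene start were searched on both strands for CAGCTG and CAGATG, which are E-box forms that basic helix-loop-helix factors can bind, for the Sox core CATTGTT, and for GGG and CC with any 5 bases between them, a loose NF-kB form. Capitals mark the matches, and both sequences run 5′ to 3′ on the plus strand, at chr7:141690090-141690339 for Muc2 and at chr7:28070986-28071235 for Fcgbp.
Muc2: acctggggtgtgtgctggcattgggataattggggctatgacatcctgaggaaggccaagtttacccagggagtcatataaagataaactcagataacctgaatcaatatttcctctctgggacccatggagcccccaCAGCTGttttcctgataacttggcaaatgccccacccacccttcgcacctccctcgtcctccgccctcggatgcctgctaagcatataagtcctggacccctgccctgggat
Fcgbp: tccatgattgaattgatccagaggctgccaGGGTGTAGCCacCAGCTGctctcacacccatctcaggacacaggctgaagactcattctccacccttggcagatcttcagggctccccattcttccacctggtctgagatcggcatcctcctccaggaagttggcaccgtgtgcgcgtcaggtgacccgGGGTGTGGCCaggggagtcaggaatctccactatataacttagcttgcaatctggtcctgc
CAGCTG lay at -112 to -107 from the start of Muc2 and at -208 to -203 from that of Fcgbp. This word was found in 13.0% of the 32851 promoters in the table. Fcgbp also held the NF-kB form at -220 to -211 and at -61 to -52, and Spdef held the same form at overlapping places from -236 to -226, from -150 to -141 and from -120 to -111. That loose form was present in 45.8% of all promoters. CAGATG (14.4% of all promoters) and CATTGTT (3.29%) had no match in these 5 windows, and the windows of Agr2 and Atoh1 held none of the 4 words. A match describes letters in the window and shows no binding.

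Total counts were 5595909 to 8117740 per library. Nfkb2, the targeted gene, was at 30.7 to 46.0 CPM (counts scaled to library size, with TMM factors) in the 6 WT libraries and at 11.7 to 19.6 in the 6 KO libraries, so it was lower but not absent. Epithelial identity genes such as Epcam and Krt8 summed to 22242 to 33409 CPM per library, while 9 of 12 stromal genes did not pass the filter and the stromal list summed to 2.47 to 20.7 CPM, with Lum, Pdgfra and Kdr at 0 in all groups. Leukocyte markers differed between the groups. The 24 listed summed to 1274 to 1743 CPM in untreated WT, 1987 to 2469 in WT under DSS, 2370.2 to 2477 in untreated KO and 2244 to 2405 in KO under DSS, and most of this was Cd74, which epithelium can also express. Without Cd74 they summed to 30.5 to 69.2 CPM in untreated WT, 98.8 to 114 in WT under DSS, 154 to 177 in untreated KO and 225 to 304 in KO under DSS. Markers of absorptive colonocytes summed to 12237 to 13455, 3544 to 3777, 7744 to 8383 and 3652 to 4293 CPM in the same order. Stem and transit-amplifying markers summed to 485 to 816, 407 to 455, 706 to 775 and 404 to 444 CPM. Replicate 3 of untreated WT stood apart for the genes described here. It was the lowest of its group for 8 of the 9 genes (all but Atoh1) and the lowest of all 12 libraries for Tff3, Zg16, Agr2, Spink4 and Spdef. Its stem and transit-amplifying markers summed to 816 CPM, against 534 and 485 in replicates 1 and 2. Its tuft markers summed to 49.0 CPM, against 29.4 and 28.0. Its epithelial identity markers summed to 24952 CPM, against 33409 and 30211, while its colonocyte markers (12647) lay between those of the others. Its shortest genes were also low: the fifth of tested genes with the shortest exons lay at a median of -0.12 log2 from their 12-library mean in it, against 0.14 in replicate 1. Replicate 1 of KO under DSS was at -0.14 and was the lowest of its group for 5 of the 9 genes (Muc2, Tff3, Zg16, Agr2 and Spink4). Replicate 1 of untreated KO was at -0.089 and was the lowest of its group for 7 of the 9 genes (all but Clca1 and Fcgbp). Replicate 3 of WT under DSS was at -0.052 and was the lowest of its group for 5 (Tff3, Clca1, Spink4, Spdef and Atoh1). Results that rest on the untreated WT group are given with and without replicate 3 of that group where the value moved by over 1.5 times or changed sign, and beside the calls of Muc2 and Clca1. The part of these libraries in the results was not tested beyond that. Library numbers in the labels separate WT from KO entirely, so an effect of library order and one of genotype cannot be told apart.

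The response to DSS differed between the genotypes for Clca1 and Muc2 by the interaction test, which Fcgbp passed in 5 of 21 alternatives but not in the fit reported here, and Zg16, Tff3, Spink4, Agr2 and Spdef passed the test in none of the 5 comparisons. Clca1 fell 2.08-fold under DSS in WT and rose 2.44-fold under DSS in KO, and Muc2 and Fcgbp rose 1.62-fold and 1.92-fold in KO. Untreated KO had 2.43-fold less Clca1 and 1.34-fold less Muc2 than WT, whereas under DSS it had 2.08-fold and 1.34-fold more. Both Muc2 differences were near the threshold and stopped passing in 5 and 6 of the 12 fits that leave out a library. Atoh1 was higher in KO with and without DSS. With leukocyte markers as a covariate no genotype difference under DSS passed, and without DSS only that of Clca1 did. A gene was called when its Benjamini-Hochberg adjusted p in edgeR's quasi-likelihood test over all 12522 genes was under 0.05, and the calls below use that rule.

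Counts of calls were as follows, beside the share of all tested genes called. Under DSS in WT 1 of the 9 genes was called (lower), where 6.3% of all genes were called, 2.8% higher and 3.5% lower. Under DSS in KO 3 were called, all higher, beside 3.92% of all genes, 1.88% higher and 2.04% lower. Untreated KO against untreated WT gave 3 calls, 1 higher and 2 lower, beside 3.48% of all genes, 1.72% higher and 1.76% lower. KO against WT under DSS gave 4 calls, all higher, beside 3.11% of all genes, 1.77% higher and 1.34% lower. The interaction, KO change with DSS less WT change with DSS, was called for 2, both positive, beside 1.7% of all genes, 1.17% positive and 0.527% negative. The median log2 change of the 9 genes was 0.09, 0.37, 0.16, 0.42 and 0.15 in these 5 comparisons, and the median of all tested genes was 0.0063, 0.015, -0.0016, 0.0027 and -0.0065. Comparisons that use the same group share its 3 libraries, so a low or high group moves more than 1 of them. The split of all calls depends on the scaling: with TMM 351 genes were higher and 438 lower for DSS in WT, 215 and 221 for untreated KO, and 147 and 66 positive and negative for the interaction, whereas with library totals, which put the median of all genes at 0.10, 0.11 and -0.13, these were 526 and 356, 352 and 157, and 121 and 110.

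**Figure D1:**
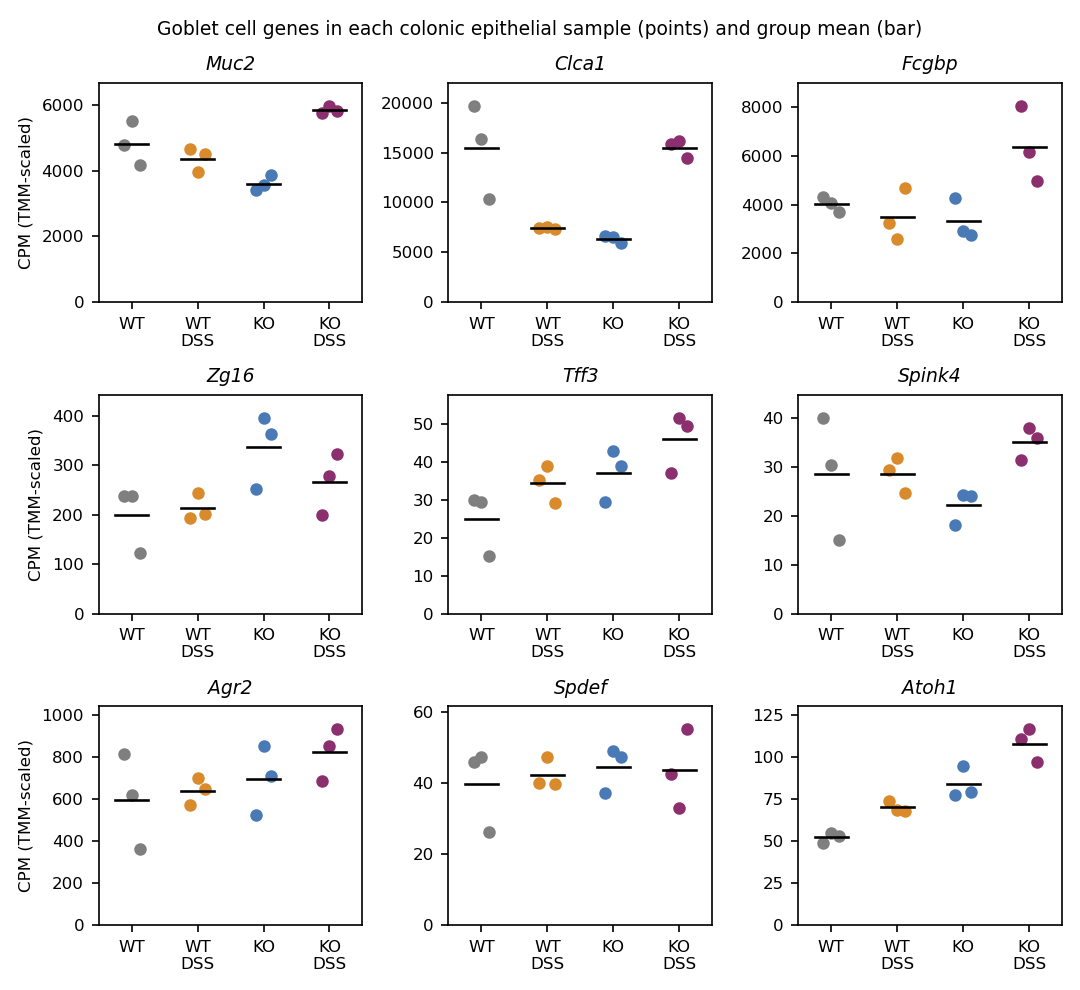
TMM-scaled CPM (vertical axis, linear, from 0) of the 9 genes in each library (points) with the group mean (bar), for untreated WT, WT under DSS, untreated KO and KO under DSS. Clca1 lies at 10396 to 19646 CPM in untreated WT and at 14506 to 16141 in KO under DSS, and at 5962 to 7543 in the other two groups.

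Summed over the 9 genes, the goblet signal took 1.94% to 2.66% of all counts in untreated WT and 1.56% to 1.79% in WT under DSS. It took 1.45% to 1.56% in untreated KO and 2.72% to 3.12% in KO under DSS. By this share of unscaled counts the KO libraries under DSS were the highest of the 12 and the untreated KO libraries among the lowest. As TMM-scaled CPM the sum was 18882 to 29975 in untreated WT and 26825 to 30770 in KO under DSS, so these 2 groups overlapped. It was 15233 to 17572 in WT under DSS and 13854 to 15222 in untreated KO. Clca1, Muc2 and Fcgbp make up most of this sum, so it follows them. Per kilobase of exon, the mean level over 12 libraries ran from Clca1 (2965 CPM per kb) through Muc2 (655), Agr2 (535), Fcgbp (411), Zg16 (202), Tff3 (72.3), Spink4 (59.9) and Atoh1 (37.0) to Spdef (18.5). Clca1 lay above Muc2 in every library, and every other neighbouring pair in that order had ranges that overlapped over the 12 libraries. Tff3 and Spink4 have the shortest exon lengths of the 9 genes (493 and 477 bases). How well such short transcripts were recovered was not tested, so their place in the order is uncertain.

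Muc2 (ENSMUSG00000025515.14, chromosome 7, 141690340 to 141754693 on the plus strand of GRCm38, protein coding) encodes the gel-forming mucin of the colon. It was at 4787, 5528 and 4183 CPM in untreated WT, 4664, 3950.4 and 4513 in WT under DSS, 3403, 3562 and 3866 in untreated KO, and 5759, 5962 and 5835 in KO under DSS. The KO libraries under DSS were higher than every other library, and the untreated KO libraries were lower than every other library. In KO, Muc2 rose with DSS by 0.70 log2 (SE 0.10, edgeR adjusted p = 0.00092). In WT, the log2 change was -0.14 (SE 0.10, adjusted p = 0.522) and the groups overlapped. These DSS changes differed by 0.84 log2 (SE 0.14, interaction adjusted p = 0.00456). Untreated KO was lower than untreated WT by -0.42 log2 (SE 0.10, adjusted p = 0.0280), and the KO level under DSS exceeded that of WT by 0.42 (SE 0.10, adjusted p = 0.0312), with no overlap in either. Both genotype calls are near the threshold. Leaving out each of the 12 libraries in turn ended the first call in 5 cases (replicate 2 of untreated WT, each replicate of untreated KO, and replicate 2 of KO under DSS, with log2 values of -0.51 to -0.32 over all 12 cases) and the second in 6 (each replicate of both DSS groups, 0.35 to 0.47). With the replicate number as a block the adjusted p was 0.0575 and 0.0632, and over 22 alternatives it ran from 0.00011 to 0.200 and from 6.99e-05 to 0.433. With library totals the untreated call was also lost (-0.30, adjusted p = 0.0580). The DSS call in KO and the interaction call held in all 12 cases. Without replicate 3 of untreated WT the DSS change in WT was -0.24, the untreated genotype difference -0.51 and the interaction 0.93.

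Clca1 (ENSMUSG00000028255.6, chromosome 3, 145003817 to 145032776 on the minus strand, protein coding) encodes a metalloprotease-like protein secreted into mucus, and of the 9 genes it had the largest log2 change in each of the 5 comparisons. Its level was 19646, 16389.9 and 10396 CPM in untreated WT, 7462, 7543 and 7371 in WT under DSS, 6594, 6521 and 5962 in untreated KO, and 15862, 16141 and 14506 in KO under DSS. Untreated WT and KO under DSS were high and overlapped each other, WT under DSS and untreated KO were low, and no high library reached down to a low one. DSS lowered Clca1 in WT by -1.05 log2 (SE 0.16, adjusted p = 0.00062) and raised it in KO by 1.29 (SE 0.16, adjusted p = 0.00029). The interaction was 2.34 log2 (SE 0.22, adjusted p = 5.54e-05). Untreated KO differed from untreated WT by -1.28 log2 (SE 0.16, adjusted p = 0.00026), and KO differed from WT under DSS by 1.06 (SE 0.16, adjusted p = 0.00177). None of these 5 calls was lost in any of the 12 fits that leave out a library. Without replicate 3 of untreated WT, the DSS change in WT was -1.27, the untreated genotype difference -1.50 and the interaction 2.56.

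Fcgbp (ENSMUSG00000047730.16, chromosome 7, 28071236 to 28120862 on the plus strand, protein coding) encodes the IgG Fc binding protein of mucus, a large protein with repeated von Willebrand domains. It was at 4322, 4083 and 3712 CPM in untreated WT, 3230.5, 2608 and 4677 in WT under DSS, 4284, 2925 and 2761 in untreated KO, and 8041, 6148 and 4992 in KO under DSS. KO under DSS was above every other library, and the other groups overlapped. In KO it rose with DSS by 0.94 log2 (SE 0.21, adjusted p = 0.0216), and the KO level under DSS exceeded that of WT by 0.87 (SE 0.21, adjusted p = 0.0406). Its DSS change in WT was -0.20 (SE 0.21, adjusted p = 0.726), and the interaction of 1.15 (SE 0.30, adjusted p = 0.0798) did not pass. The interaction did pass with DESeq2 (adjusted p = 0.00948), with the length trend removed (0.0201), without replicate 3 of WT under DSS (0.0199) and without replicate 1 of untreated KO (0.0329). It also passed with no filter on low counts (1.66e-18), where the SE was 0.12 against 0.30 in the fit reported here. Its adjusted p over 21 alternatives reached 0.225. Each call was lost in 4 of the 12 fits that leave out a library. For DSS in KO these were replicates 2 and 3 of untreated KO and replicates 1 and 2 of KO under DSS (0.74 to 1.16 over the 12 fits), and for KO against WT under DSS replicates 1 and 2 of WT and of KO (0.67 to 1.13). With a replicate block the second call had an adjusted p of 0.0531, within 1.04e-21 to 0.217 over 22 alternatives. Of the 50-base words of Fcgbp exons, 6.42% also occur in other genes, chiefly 9530053A07Rik, which had 0 to 5 counts per library.

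Clca1 and Muc2 are both goblet cell products, and the ratio of their counts, chosen after the values were seen, was not constant. It was 2.48 to 4.10 in untreated WT, 1.60 to 1.91 in WT under DSS, 1.54 to 1.94 in untreated KO and 2.49 to 2.75 in KO under DSS. The groups fell into the same high and low pairs as Clca1 itself. Fcgbp relative to Muc2 was 0.739 to 0.903, 0.660 to 1.04, 0.714 to 1.26 and 0.856 to 1.40 in the same order, so all 4 groups overlapped.

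**Figure D2:**
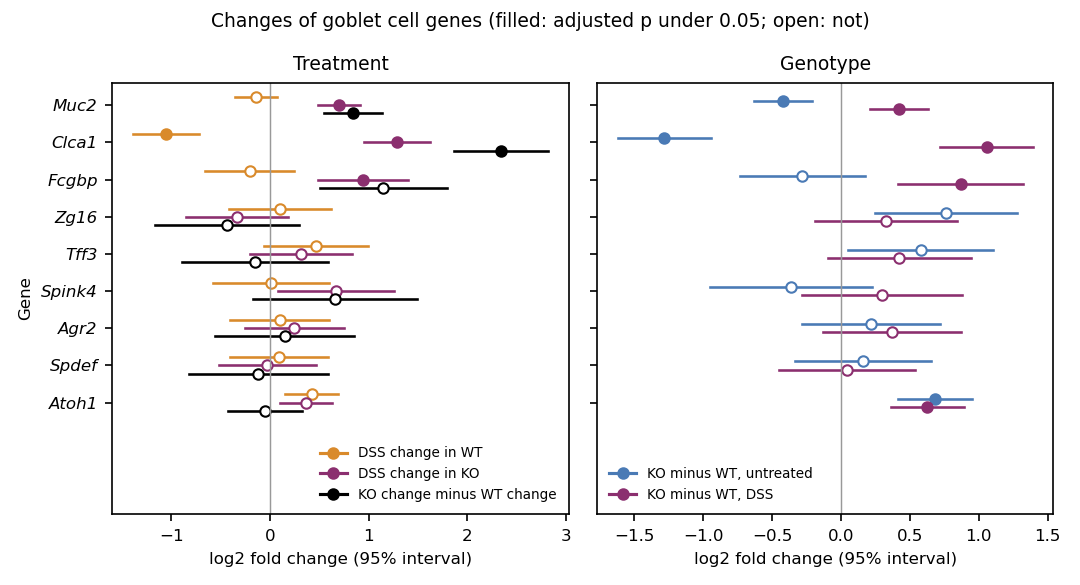
Log2 fold changes (horizontal axis) of the 9 genes with 95% confidence intervals computed from edgeR's log2 change and F, for the 3 treatment contrasts (left) and the 2 genotype contrasts (right), with filled points where the adjusted p was under 0.05. Clca1 has filled points in all 5 contrasts, at -1.05, 1.29, 2.34, -1.28 and 1.06, while Zg16, Tff3, Spink4, Agr2 and Spdef have none.

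Zg16 (ENSMUSG00000049350.5, chromosome 7, 127050156 to 127087328 on the minus strand, protein coding) encodes a lectin-like mucus protein that binds Gram-positive bacteria. It was at 238, 237 and 122 CPM in untreated WT, 194, 244 and 201 in WT under DSS, 252, 396 and 363 in untreated KO, and 198, 279 and 323 in KO under DSS. Untreated KO lay above untreated WT with no overlap, and the remaining comparisons overlapped. The untreated genotype difference of 0.76 log2 (SE 0.24, adjusted p = 0.110) did not pass. It passed with library totals (0.89, adjusted p = 0.0428), with DESeq2 (0.75, 0.0413) and with the length trend removed (0.73, 0.0231). It also passed with no filter on low counts (0.77, 4.82e-07), where the SE was 0.13 against 0.24. The highest adjusted p over 22 alternatives was 0.314, and the difference was 0.51 (0.188) without replicate 3 of untreated WT. The DSS changes were 0.10 in WT (SE 0.24, adjusted p = 0.909) and -0.34 in KO (SE 0.24, adjusted p = 0.567), and without that library the change in WT was -0.16 and the interaction went from -0.43 to -0.18. In the annotation the gene overlaps Gm44939 and Gm22747, with no shared exon bases.

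Tff3 (ENSMUSG00000024029.4, chromosome 17, 31125306 to 31129646 on the minus strand, protein coding) encodes the intestinal trefoil peptide. Its level was 30.0, 29.5 and 15.3 CPM in untreated WT, 35.2, 38.9 and 29.1 in WT under DSS, 29.4, 43.0 and 39.0 in untreated KO, and 37.1, 51.6 and 49.6 in KO under DSS. Group means ran from 24.9 in untreated WT to 46.1 in KO under DSS, but neighbouring groups overlapped in every comparison. No contrast passed: the log2 values were 0.47 and 0.31 for DSS in WT and in KO (adjusted p = 0.366 and 0.605) and 0.58 and 0.42 for KO against WT without and with DSS (adjusted p = 0.267 and 0.472). Without replicate 3 of untreated WT the change in WT was 0.21, the untreated genotype difference 0.32 and the interaction 0.10, which had been -0.15. Counts were 99 to 359 per library, and the SE of 0.24 to 0.25 for these 4 contrasts was like that of Zg16 and Agr2, which have more counts.

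Spink4 (ENSMUSG00000028415.4, chromosome 4, 40920052 to 40931395 on the plus strand, protein coding) encodes a Kazal-type serine protease inhibitor of goblet cells. It was at 40.0, 30.5 and 15.0 CPM in untreated WT, 29.4, 31.8 and 24.6 in WT under DSS, 18.1, 24.2 and 24.1 in untreated KO, and 31.4, 38.0 and 36.0 in KO under DSS. KO under DSS lay above untreated KO with no overlap, and untreated WT spanned the range of all other libraries. The DSS change in KO was 0.66 log2 (SE 0.27, unadjusted p = 0.0288, adjusted p = 0.238), and the interaction was 0.66 (SE 0.39, adjusted p = 0.623). Neither passed. Without replicate 3 of untreated WT the DSS change in WT was -0.30, where it had been 0.0064, and the untreated genotype difference was -0.67, where it had been -0.36. The interaction was then 0.96 (adjusted p = 0.0914), within a range of adjusted p from 0.0717 to 0.810 over 21 alternatives.

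Agr2 (ENSMUSG00000020581.10, chromosome 12, 35992907 to 36004087 on the plus strand, protein coding), which folds secretory proteins, was at 817, 618 and 360.3 CPM in untreated WT and at 572, 702 and 648 in WT under DSS. In KO it was at 526, 852 and 713 untreated and at 687, 856 and 933 under DSS. The groups overlapped throughout. The DSS changes were 0.10 log2 in WT and 0.24 in KO (SE 0.23 for both, adjusted p = 0.906 and 0.699), the genotype differences 0.22 and 0.37 (adjusted p = 0.751 and 0.536), and the 95% interval of the interaction ran from -0.56 to 0.85. Without replicate 3 of untreated WT the change in WT was -0.17, the untreated genotype difference -0.041 and the interaction 0.41.

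Spdef (ENSMUSG00000024215.12, chromosome 17, 27714352 to 27728955 on the minus strand, protein coding), the Ets factor of goblet cell maturation, was at 46.1, 47.3 and 26.2 CPM in untreated WT and at 40.0, 47.4 and 39.9 in WT under DSS. In KO it was at 37.2, 49.1 and 47.3 untreated and at 42.7, 33.1 and 55.2 under DSS. Group means lay between 39.9 and 44.5 CPM and every pair of groups overlapped. The log2 changes were 0.09 (95% interval -0.41 to 0.59) with DSS in WT and -0.03 (-0.52 to 0.47) in KO, and 0.16 and 0.04 for KO against WT without and with DSS, none of which passed. Without replicate 3 of untreated WT the first was -0.14, the untreated genotype difference -0.067 and the interaction, which had been -0.12, was 0.11.

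Atoh1 (ENSMUSG00000073043.5, chromosome 6, 64729125 to 64731245 on the plus strand, 1 exon, protein coding), the factor that commits cells to the secretory lineages, was called for genotype with and without DSS. It was at 48.6, 54.8 and 53.2 CPM in untreated WT, 73.5, 68.4 and 67.9 in WT under DSS, 77.3, 94.4 and 79.2 in untreated KO, and 110.4, 116 and 97.1 in KO under DSS. The 4 groups stood in this order with no overlap between neighbours. KO was higher than WT by 0.68 log2 untreated (SE 0.13, adjusted p = 0.00668) and by 0.63 under DSS (SE 0.12, adjusted p = 0.0127). DSS gave 0.42 log2 in WT (SE 0.13, adjusted p = 0.0654) and 0.37 in KO (SE 0.12, adjusted p = 0.132), neither of which passed, although with library totals the change in WT did (0.52, adjusted p = 0.0251), and the interaction was -0.05 (95% interval -0.43 to 0.32). The untreated genotype call held in all 12 fits that leave out a library. The call under DSS was lost without replicate 2 or 3 of WT or replicate 2 of KO (0.56 to 0.70, adjusted p = 0.00945 to 0.0718 over the 12 fits).

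Leukocyte markers also differed with genotype. Of 19 tested, 12, Ptprc among them, were higher in untreated KO than in untreated WT, beside 1.72% of all tested genes called higher. Of the same markers 6 were higher in KO under DSS than in WT under DSS, beside 1.77% of all tested genes. With their mean log2 level as a covariate, none of the 9 genes was called for KO against WT under DSS. Clca1 was then at 0.39 log2 (adjusted p = 0.247, over a range of 2.44e-43 to 0.247 in 22 alternatives), Muc2 at 0.25 (0.433, range 6.99e-05 to 0.433), Fcgbp at 0.94 (0.217, range 1.04e-21 to 0.217) and Atoh1 at 0.72 (0.0989, range 0.00022 to 0.0989). Of the 3 untreated genotype calls only that of Clca1 remained, at -2.31. Both interaction calls held with the covariate, at 2.70 for Clca1 and 0.94 for Muc2, as did the DSS calls of Clca1 in each genotype (-1.74 and 0.96) and of Muc2 in KO (0.61). The DSS call of Fcgbp in KO was lost (0.98, adjusted p = 0.0532, at most 0.110 over 22 alternatives), and Zg16 was called lower there (-0.87, adjusted p = 0.0281, at most 0.873). The covariate moves with the groups themselves, and the part of leukocyte RNA in the genotype differences was not tested beyond this fit.

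A list drawn up by name as other goblet products, with 20 genes of which 15 were tested, held genes with calls in every comparison. Bulk RNA does not tell which epithelial cells, absorptive colonocytes among them, expressed the genes of this list. DSS in WT gave 2 higher and 7 lower (median -0.36), DSS in KO 3 higher and 2 lower (median 0.09), untreated KO against WT 2 higher and 5 lower (median -0.19), KO against WT under DSS 4 higher and 1 lower (median 0.50), and the interaction 6 positive and 1 negative (median 0.57). Of all tested genes 6.3%, 3.92%, 3.48%, 3.11% and 1.7% were called in the same order. Over the alternatives the total calls of the list were 8 to 10, 1 to 6, 5 to 9, 1 to 7 and 7 to 9 in these comparisons. Ang4, a ribonuclease of the angiogenin family with antimicrobial activity, was at 512, 408 and 175 CPM in untreated WT, 82.4, 118 and 88.5 in WT under DSS, 65.3, 96.8 and 96.4 in untreated KO, and 203, 226 and 259 in KO under DSS. It fell with DSS in WT (-1.92 log2, SE 0.30, adjusted p = 0.00088) and rose in KO (1.41, SE 0.29, adjusted p = 0.0141), with no overlap in either genotype. Retnlb, which encodes the bactericidal goblet cell protein RELM-beta, did likewise (-1.27 and 1.26, SE 0.32 and 0.33, adjusted p = 0.0303 and 0.0484). It was at 31.9 to 100.4 CPM in untreated WT, 25.8 to 31.7 in WT under DSS, 12.6 to 21.3 in untreated KO and 33.7 to 51.2 in KO under DSS. Both Retnlb calls are near the threshold, and 15 and 9 of 22 alternatives kept them. With the replicate block both were lost (adjusted p = 0.0652 and 0.0903).

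Reg4, a secreted lectin, fell with DSS in WT from a mean of 955 to 214 CPM (-2.16 log2, SE 0.24, adjusted p = 4.77e-05), and in KO it was 419 and 446 CPM (0.09, adjusted p = 0.907). The lectin gene Itln1 and the lipase gene Pnliprp2 fell with DSS in WT (-1.89 and -3.17) and were lower in untreated KO than in untreated WT (-2.00 and -3.44). Itln1 is also listed as a Paneth cell marker, and the other 5 Paneth markers did not pass the filter. Guca2a, which encodes guanylin, fell in both genotypes (-2.41 in WT and -1.23 in KO), and its interaction of 1.18 did not pass (adjusted p = 0.144). The summed colonocyte markers also fell with DSS, from a mean of 12780 to 3663 CPM in WT and from 8043 to 3914 in KO. The part of colonocytes in the changes of Guca2a and of the Clca4 genes below was not tested. The relatives of Clca1 went separate ways. Clca4b rose with DSS in WT, where untreated libraries were at 61.1 to 119 CPM and DSS libraries at 604 to 669 (2.71 log2, SE 0.19, adjusted p = 4.09e-07). In KO it rose too, with 80.3 to 86.3 CPM untreated and 132 to 143 under DSS (0.71, SE 0.18, adjusted p = 0.0384), a call kept in 11 of 22 alternatives and lost with the replicate block (adjusted p = 0.0563, at most 0.251 over the 22). Clca4a fell in WT, with 52.1 to 100.1 CPM untreated and 8.34 to 10.1 under DSS (-3.17 log2, SE 0.25, adjusted p = 2.16e-06). In KO it fell less far, with 49.6 to 57.9 CPM untreated and 19.1 to 29.9 under DSS (-1.13, SE 0.23, adjusted p = 0.0132), and the interaction of 2.03 passed. These 2 genes share sequence, with 41.0% of the 50-base words of Clca4a and 24.8% of those of Clca4b also found in other genes of the cluster, so their counts are uncertain, whereas no such word of Clca1 occurs elsewhere.

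**Figure D3:**
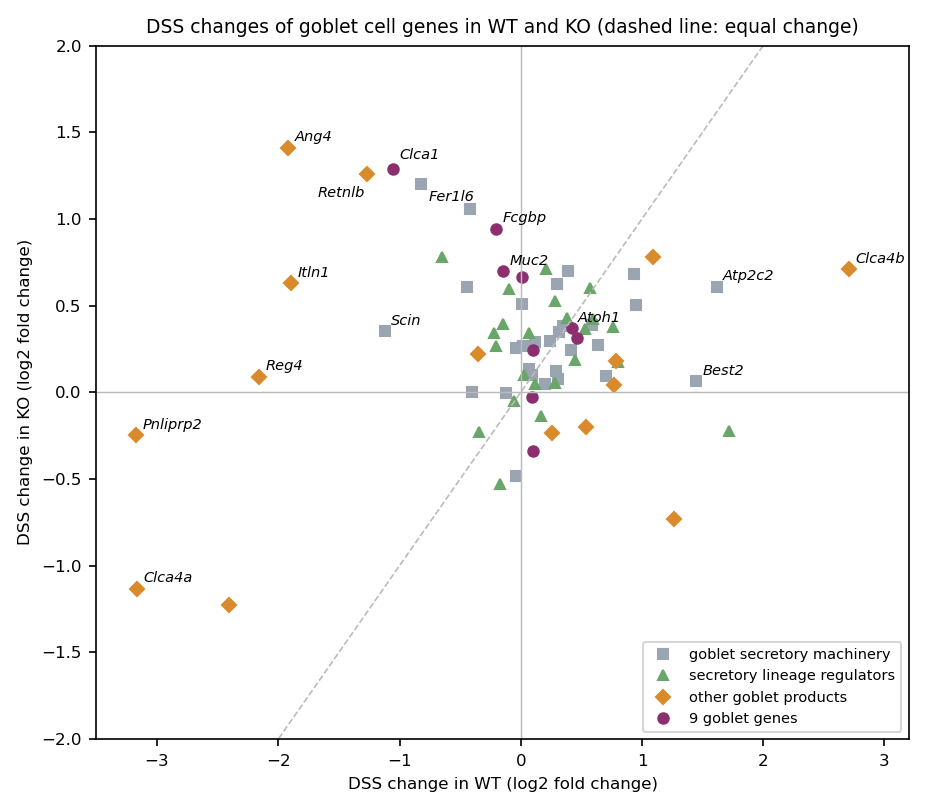
DSS change in WT (horizontal axis) against DSS change in KO (vertical axis), both as log2 fold changes from separate groups of libraries, for the 9 genes and the tested genes of 3 lists, with names at genes whose interaction passed and at Fcgbp and Atoh1. Clca1 (-1.05 and 1.29), Ang4 (-1.92 and 1.41) and Retnlb (-1.27 and 1.26) lie at the upper left, where the genotypes moved in opposite directions, and Clca4b (2.71 and 0.71) lies at the far right.

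Genes of the secretory machinery (30 listed, 29 tested) gave 3 higher and 1 lower with DSS in WT (median 0.24), 4 higher in KO (median 0.29), 3 higher in untreated KO (median 0.06), 5 higher in KO under DSS (median 0.27), and 2 positive and 2 negative interactions (median 0.04), with 3 to 12, 0 to 5, 1 to 6, 0 to 7 and 4 to 6 calls over the alternatives. The shares of all tested genes called were 6.3%, 3.92%, 3.48%, 3.11% and 1.7% in these comparisons. Scin, which encodes an actin-severing protein, fell in WT from a mean of 485 to 223 CPM (-1.12 log2, SE 0.17, adjusted p = 0.00087), with 311 and 397 CPM in KO (0.35, adjusted p = 0.338). Fer1l6, of the ferlin membrane proteins, rose with DSS in KO (1.20, SE 0.27, adjusted p = 0.0206, kept in 16 of 22 alternatives), and its value in WT was -0.83 (adjusted p = 0.0956). In contrast, Best2, a bicarbonate channel of goblet cells, rose with DSS in WT, with 13.0 to 18.9 CPM untreated and 38.7 to 47.5 under DSS (1.45, SE 0.17, adjusted p = 9.03e-05), and it was already at 59.4 to 75.6 CPM in untreated KO. Atp2c2, a Golgi calcium and manganese pump, rose in both genotypes, by 1.62 in WT and 0.61 in KO, the second kept in 16 of 22 alternatives. Bcas1 and the mucosal calpain gene Capn9 rose with DSS in KO by 0.70 and 1.06 (adjusted p = 0.00770 and 0.0354). The call of Bcas1 was kept in 20 of 22 alternatives and that of Capn9 in 13, being lost with the leukocyte covariate (0.67) and without each replicate of either KO group or replicate 1 or 2 of WT under DSS.

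All 21 listed genes of mucin O-glycosylation were tested. With DSS 2 were higher and 1 lower in WT (median -0.09) and none passed in KO (median 0.11). In KO 5 had an unadjusted p under 0.05, with no share of all genes at that level to set beside them. DESeq2 called 2 of the list there, where it called 800 of all genes. In untreated KO 3 were higher and 1 lower (median -0.05), under DSS 1 was higher and 3 lower (median 0.04), and the interaction gave 1 positive and 1 negative call (median 0.03). Beside the calls of edgeR stand 6.3%, 3.92%, 3.48%, 3.11% and 1.7% of all tested genes called. Over the alternatives the total calls of the list were 1 to 6, 0 to 2, 2 to 6, 1 to 6 and 1 to 3. St3gal4, a sialyltransferase gene, fell with DSS in WT, with 881 to 1214 CPM untreated and 626 to 680.1 under DSS (-0.71 log2, SE 0.11, adjusted p = 0.00089) and was at 699 to 721 in untreated KO and 796 to 942 in KO under DSS. Gcnt1, which encodes a core 2 branching enzyme, was higher in untreated KO (41.5 to 60.3 CPM) than in untreated WT (14.3 to 20.7). St6galnac1, which adds the sialic acid of the sialyl-Tn antigen, had 0 counts in each WT library under DSS and 0 to 13 in untreated WT, against 778 to 1065 in the 6 KO libraries, and both genotype contrasts passed. Of its 50-base words 34.9% also occur in Gm11735, so its counts are uncertain.

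Of 26 listed regulators of the secretory lineages 23 were tested. Their calls stand beside 6.3%, 3.92%, 3.11%, 3.48% and 1.7% of all tested genes, in the order that follows. DSS in WT gave 3 higher (median 0.17), DSS in KO 1 higher (median 0.34), KO under DSS 1 higher (median 0.13), untreated KO none (median 0.16) and the interaction none (median 0.03). At an unadjusted p under 0.05 untreated KO had 4 genes and the interaction 5, with no share of all genes at that level to set beside them. DESeq2 called 3 and 0 of the list, where it called 790 and 360 of all genes. Over the alternatives the counts were 0 to 4, 0 to 2, 0 to 3, 0 to 3 and 0 for DSS in WT, DSS in KO, KO under DSS, untreated KO and the interaction. Xbp1, the unfolded protein response factor that secretory cells need, rose in WT, with 283 to 319 CPM untreated and 407 to 426 under DSS (0.45 log2, SE 0.09, adjusted p = 0.00473). Elf3, an epithelial Ets factor related to Spdef, rose in both genotypes (0.38 and 0.43, SE 0.10 for both, adjusted p = 0.0279 and 0.0203). These calls were kept in 17 and 15 of 22 alternatives. The change in WT was 0.014 with the leukocyte covariate (adjusted p = 0.968, the highest of the 22) and was lost without each replicate of WT under DSS, and the change in KO was lost with the covariate (0.26) and without each replicate of either KO group. Sox9, a factor of crypt base cells, passed for KO against WT under DSS and was at 95.5 to 99.3 CPM in KO and 50.5 to 58.8 in WT.

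For each of the 9 genes the nearest pattern among 8847 other genes whose mean log2 CPM reached 3 was found by the root-mean-square difference of log2 CPM, centred per gene, over the 12 libraries. Muc2 was closest to P2rx4 (0.095 log2) and Gpr160 (0.11), and Atoh1 to Rnf186 (0.12) and Itih5 (0.14). Clca1 had no near match, with Ifi44 and Slfn5 at 0.28 each, and Fcgbp was closest to Parp14 and Gm5431 (0.21 each). Agr2 lay closest to Rabac1 (0.11) and Sh3bgrl3 (0.14), Spdef to Ndufs8 and Ndufb11 (0.12 each), Zg16 to Commd1 (0.15) and Cbr3 (0.16), Tff3 to Slc38a7 and AI854703 (0.19 each), and Spink4 to Rnf139 (0.21) and Fbxl8 (0.22). Among the 9 themselves, Muc2 was the nearest of Clca1 (0.41) and of Fcgbp (0.33), whereas Tff3 and Agr2 were nearest to each other (0.21). These libraries share their depth and length trends, and the ranking is a description.

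**Figure D4:**
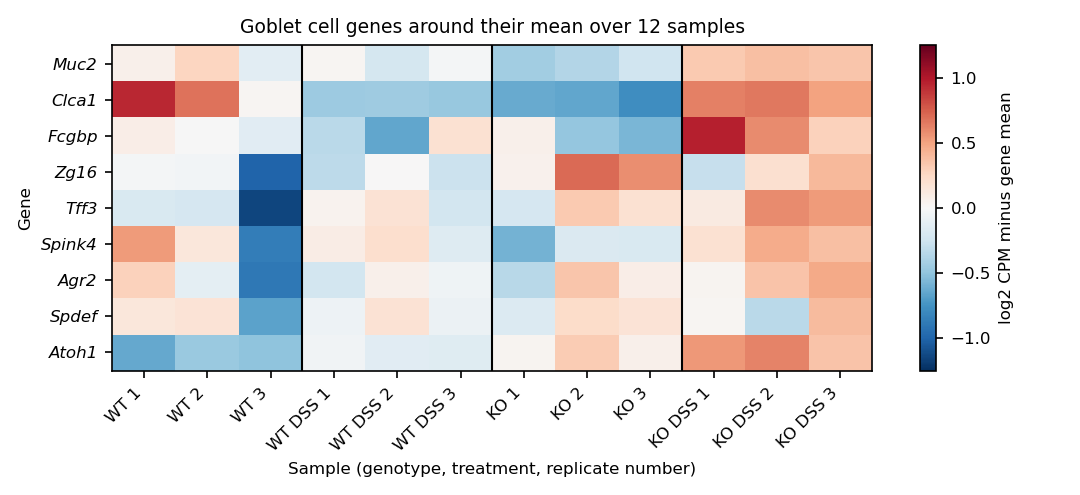
Log2 CPM of the 9 genes (rows) in each library (columns, by genotype, treatment and replicate number), as the difference from the gene's mean over 12 libraries, on a color scale from blue (lower) to red (higher). Clca1 is red in replicates 1 and 2 of untreated WT and in KO under DSS and blue in the 6 libraries between them, Atoh1 goes from blue to red across the groups, and replicate 3 of untreated WT is blue for Zg16, Tff3, Spink4, Agr2 and Spdef.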

How the data were processed

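Colonic epithelial RNA of 12 mouse samples (4 groups of 3, grouped by their titles) was made into SMART-seq2 and Nextera XT libraries from 2 ng of total RNA (RNA integrity 7.2 to 9.2, median 8.8), without molecular identifiers or strand marks, per the labels' protocols. The authors deposited whole-number counts of reads per gene, not normalized. STAR 2.5.2b, featureCounts 1.5.0 and the builds GRCm38 and mm10 are named in the submitters' processing notes; the annotation is not given in the sources used here. ERCC RNA was added per the labels, but 0 ERCC rows were among the counts, so scaling used genes only.

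Symbols and exon lengths came from GENCODE M21 (GRCm38), matching 46005 of 46517 IDs (27555 with their version). Counts were tested with edgeR 4.0.16 in R 4.3.3: filterByExpr (12522 genes, 99.8% of counts), TMM scaling, 1 coefficient per group over all 12 samples, quasi-likelihood F tests (two-sided), and Benjamini-Hochberg adjustment over all tested genes for each of 5 contrasts. The common biological coefficient of variation was 0.227. An adjusted p is from this test unless another fit is named with it, and CPM values are TMM-scaled. Ranges over the alternatives span those fits, DESeq2 and the fit with no filter on low counts among them. The lowest adjusted p of a range can come from the fit with no filter. Its SE for the Fcgbp interaction was 0.12, against 0.30 in the fit reported here. Intervals are 95%. Log2 CPM used a prior count of 2 and count ratios a pseudocount of 0.5. The script was tested on simulated data for DSS in WT, where the share of false calls exceeded the nominal one with edgeR and more so with DESeq2. The p-values rest on the spread between the 3 samples within groups. That spread was 1 estimate per gene shared by all 4 groups, so a group outside a comparison also enters it. With 5595909 to 8117740 counts per library, from reads without molecular identifiers that are not independent molecules, counting error is smaller for Muc2, Clca1 and Fcgbp than for Tff3, Spink4 and Spdef.

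Named were all 9 genes, from each of 4 lists at most the 4 genes with the smallest p per contrast among those past the threshold, and the 2 genes nearest in pattern to each of the 9. The 9 genes, the lists and this rule were chosen with earlier results of these data known. Alternatives were DESeq2 1.42.0, other scalings and filters, fits on the 2 groups compared, a replicate block, a leukocyte covariate, removal of a length trend and leaving out each sample.

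Samples carry the numbers 1 to 3 in each group's titles. Deviations from group means correlated by 0.106 to 0.204 between same-numbered samples for DSS in KO. All were above 0.1, so by the rule used the numbers pair those samples, and with the block the same 3 goblet genes passed. In both genotypes the untreated and DSS samples of the same number carry consecutive library numbers in the labels, which state nothing else that they share. The fit reported here does not use this pairing. For the other contrasts the correlations were 0.014 to 0.128 (DSS in WT), -0.175 to -0.053 (KO against WT untreated) and -0.117 to -0.010 (under DSS), and by the same rule the numbers do not pair the samples. For DSS in WT, though, differently numbered samples correlated by -0.118 to 0.0096, each below the same-numbered ones.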

Additional observations from a re-analysis of the deposited data

Results flagged for a closer look

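The DSS change differed between the genotypes, by the interaction test of edgeR (adjusted p under 0.05), for 2 of the 9 goblet genes and for 13 further genes of the lists. The 4 lists held 15, 29, 21 and 23 tested genes. Of all tested genes 1.7% passed this test, 1.17% positive and 0.527% negative. As KO change minus WT change on the log2 scale, the values were 2.34 for Clca1 and 0.84 for Muc2. Positive values were also found for Ang4 (3.33), Pnliprp2 (2.93), Retnlb (2.53), Itln1 (2.52), Reg4 (2.25), Clca4a (2.03), Fer1l6 (2.03), Scin (1.47) and St3gal4 (1.01). Negative values were found for Clca4b (-2.00), Gcnt1 (-1.59), Best2 (-1.38) and Atp2c2 (-1.01). For Clca1, Ang4 and Retnlb the DSS change passed in both genotypes with opposite signs.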

How the results depend on the processing

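Results were recomputed with DESeq2's test, DESeq2's size factors in edgeR, library totals, no filter on low counts, a 10-count filter, scaling without the 9 genes, the 2 groups compared alone, a replicate block, a leukocyte covariate and each library left out. Removal of a length trend, and every alternative for genes beyond the 9, were chosen after seeing the data. Of the log2 changes of the 9 genes under the alternatives, 890 kept direction and side of the threshold, 35 lost and 14 gained a call, and 42 changed sign. Of those of the other named genes 1223 held, 230 lost the call and 5 changed sign.

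All genes called were 789 for DSS in WT, 491 for DSS in KO, 436 for untreated KO against WT, 390 for KO against WT under DSS and 213 for the interaction. With DESeq2 the last 4 were 800, 790, 661 and 360, and with no filter 776, 703, 642 and 356, and in simulated data DESeq2 made a larger share of false calls than edgeR, both above the nominal share. With the 2 groups alone DSS in WT gave 467 and untreated KO 195. With the covariate KO against WT under DSS gave 254 and the interaction 343. Leaving out 1 library gave 483 to 958, 235 to 710, 212 to 725, 160 to 566 and 152 to 350 calls in the 5 comparisons. Of the 9 genes, DSS in WT gave 2 calls with library totals, DESeq2 and the covariate, untreated KO 5 with no filter and 1 with the covariate, and KO against WT under DSS 2 with the block and 0 with the covariate. Leaving out 1 library gave 1, 2 to 3, 2 to 3, 1 to 4 and 2 to 3. The replicate block ended the calls of Muc2 for both genotype comparisons and of Fcgbp under DSS, changed no other call of the 9 genes, and called 696, 409, 345, 290 and 186 of all genes.

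None of the values of the 9 genes that changed sign had passed the test, and of the changed ones Agr2 passed for DSS in WT with the covariate (adjusted p = 0.0488, within 0.0488 to 0.988 over 22 alternatives). With the covariate the DSS change in WT was -0.47 for Tff3, -0.97 for Zg16, -0.97 for Agr2, -1.09 for Spink4 and -0.89 for Spdef, and in KO -0.15 for Tff3 and -0.28 for Agr2. Untreated KO against WT was -0.80 for Tff3, -0.81 for Zg16, -1.37 for Agr2 and -1.28 for Spdef, and under DSS -0.48, -0.71, -0.68 and -0.92, with Spink4 at -0.79. The interaction was 0.32 for Tff3, 0.095 for Zg16 and 0.37 for Spdef. Chst4 and Rep15 were at -0.25 and -0.036 in untreated KO, and Ang4, Guca2a and Reg4 at -0.096, -0.00091 and -0.029 in KO under DSS. Without the length trend Spdef was at 0.011 for DSS in KO, and with library totals Agr2 at -0.0014 for the interaction. Leaving out 1 library, DSS in WT ranged from -0.16 to 0.24 for Zg16, -0.17 to 0.38 for Agr2, -0.30 to 0.33 for Spink4 and -0.14 to 0.23 for Spdef, and in KO from -0.24 to 0.13 for Spdef. Untreated KO ranged from -0.041 to 0.51 for Agr2 and -0.067 to 0.30 for Spdef, and KO under DSS from -0.16 to 0.20 for Spdef. The interaction ranged from -0.31 to 0.099 for Tff3, -0.14 to 0.41 for Agr2, -0.33 to 0.11 for Spdef and -0.12 to 0.041 for Atoh1. The cause of these changes was not tested.

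The number of samples, 3 a group, limits the precision.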
